A study of Mus musculus with 72 samples.

Results

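The blood of mice exposed to 1 Gy of neutrons was compared directly with the blood of mice exposed to 1 Gy of x-rays at day 7. The 11 arrays, 6 of neutron mice and 5 of x-ray mice, were chosen by their labels alone from the 72 arrays of the series, with 1 mouse on each array. All mice were male C57BL/6 animals, irradiated at 8 to 10 weeks of age. Blood was drawn by cardiac puncture into an RNA stabilizing solution, and globin RNA was reduced before labelling. The neutron beam came from an accelerator, carried some gamma rays and was delivered at a lower dose rate than the x-rays, which came from an orthovoltage machine, so radiation type, dose rate and exposure set-up cannot be told apart. Values of the 6 sham-irradiated control mice of day 7 are given beside those of both groups. Of the 11 arrays compared, only that of neutron mouse 1 shared a scan date with these controls. The 6 neutron and 6 x-ray mice of day 1 at the same dose served to test whether a difference between radiation types changed with time. Day 7 values of 5 mice given 0.25 Gy of neutrons and 6 mice given 4 Gy of x-rays are given in places for comparison. The p-values measure the spread between mice, and in whole blood fewer cells of a type and less RNA per cell cannot be told apart.

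Neutrons deposit their energy densely along short tracks, and x-rays deposit it sparsely. Among blood cells, B lymphocytes are known for their sensitivity to radiation. Red cells enter the blood as reticulocytes, which have lost the nucleus, still hold RNA for globin, heme synthesis and ribosomes, and clear their organelles through ubiquitin and autophagy proteins.

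The arrays of the neutron mice were dimmer than those of the x-ray mice. The share of spots well above background was 40.2 to 50.3% in the neutron mice, 52.8 to 58.8% in the x-ray mice and 54.3 to 63.9% in the controls. The mean was 45.6% ± 3.31 (SD, n = 6) after neutrons and 56.7% ± 2.39 (SD, n = 5) after x-rays, a difference of -11.1 percentage points (exact permutation test, 2-sided p = 0.00216, the smallest this design allows). The groups did not overlap. Levels are therefore given on the log2 scale relative to the median detected probe of each array, which was 1.66 lower, before this centring, on the neutron arrays than on the x-ray arrays. A gene with a centred difference of 1.66 had the same uncentred signal in both groups. Among the 10863 genes tested, 604 had a higher uncentred signal after neutrons. The 8 spike-in probes, RNA added in known amounts, differed by -0.54 on the log2 scale (exact permutation test, p = 0.0346). One array stood apart: x-ray mouse 5 had the lowest correlation with its own group (median r = 0.946 across genes) and high levels of 11 hepatocyte genes, 6.21 above the control mean on average. The same hepatocyte score was 4.69 in neutron mouse 1 and 4.58 in x-ray mouse 3, and the other mice of both groups lay at 1.12 or below. The part of these genes in the other results was not tested. Of 7 globin genes, which mark red cells, 6 were in the brightest of 10 bins of genes by level in the controls.

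**Figure D1:**
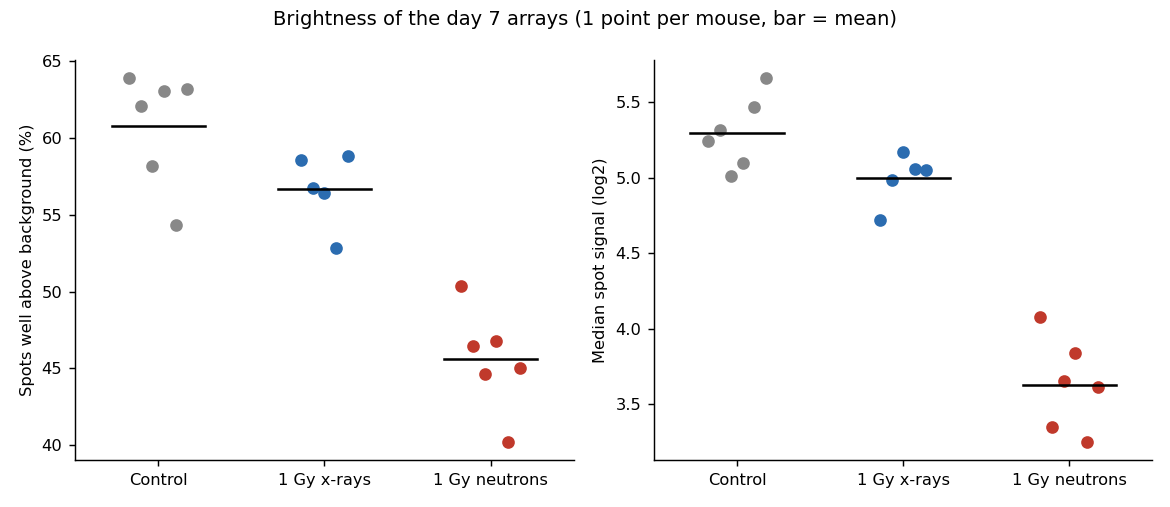
Brightness of the day 7 arrays, with 1 point per mouse and the mean as a bar. The left panel gives the share of spots well above background in percent and the right panel the log2 median spot signal; all 6 neutron arrays lie below all 5 x-ray arrays, with a highest neutron share of 50.3% and a lowest x-ray share of 52.8%.

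A gene was called when limma gave p below 0.001 and a false discovery rate (FDR) below 5% over all genes tested. Of the 10863 genes, 2496 (23.0%) were differentially expressed between neutrons and x-rays, 1880 (17.3%) higher and 616 (5.67%) lower after neutrons. The 6 neutron mice lay above all 5 x-ray mice for 1916 genes (17.6%) and below all of them for 994 (9.15%). The balance of directions followed the reference level of the arrays. The median difference over all genes was 0.34 on the log2 scale with median centring, 0.10 after quantile normalization, with 1121 genes called higher and 857 lower, and -0.26 when all probes set the median, with 683 higher and 1624 lower. It was -1.15 with centring on the spike-in probes, which gave 21 higher and 5001 lower, and -0.11 with dim spots set to missing, which gave 441 higher and 2014 lower. Of the 1880 genes called higher, 449 also had a higher uncentred signal after neutrons. A total of 140 genes were called lower under all 7 scalings. Of the genes called higher, 6 were called higher under all 7 scalings, and 90 (0.829%) under the 6 scalings other than spike-in centring.

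B cell genes were lower after neutrons than after x-rays. Of 22 B cell genes tested, 16 fell and none rose, with a median difference of -1.45 on the log2 scale against 0.34 over all genes. The neutron mice lay below every x-ray mouse for 15 of them. The median stayed below 0 under all 7 scalings, from -2.57 to -1.44, and 14 of the 22 were called lower under the 6 scalings other than spike-in centring, where 1.29% of all genes were. The number called was 13 to 16 when each mouse was left out in turn.

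Tnfrsf13c encodes the receptor for the B cell survival factor BAFF. Its centred log2 level was 0.01 to 0.86 in the neutron mice (median 0.28), 2.53, 2.49, 2.62, 2.17 and 1.74 in x-ray mice 1 to 5, and 2.65 to 3.54 in the controls (median 3.29). No neutron mouse reached the lowest x-ray mouse, and no x-ray mouse reached the lowest control. The difference was -1.97 ± 0.22 (SE, limma adjusted p = 0.000451), 3.93-fold lower after neutrons. A second probe of the gene moved the other way.

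Fcrla, an Fc receptor-like protein of B cells, gave 0.43 to 1.00 in the neutron mice (median 0.70) and 2.60, 2.65, 2.69, 2.86 and 1.96 in x-ray mice 1 to 5. X-ray mouse 5 was the lowest of its group and still above all neutron mice, and the difference was -1.84 ± 0.20 (limma adjusted p = 0.000451). Other called members included Cd79a and Cd79b, the signalling chains of the B cell receptor, with differences of -1.48 and -1.72. The surface proteins Ms4a1 (CD20), Cd72, Fcer2a and Fcmr lay between -1.78 and -1.21. The transcriptional regulators Ebf1, Spib and Pou2af1 lay between -1.77 and -1.31, the adaptors Bank1 and Blnk at -1.74 and -1.35, and the chemokine receptor Cxcr5 at -1.48. Vpreb3 gave -1.42. The members that were not called were Blk at -1.27, Siglecg at -0.98, Cr2 at -0.48, Btk at -0.32, Cd22 at 0.13 and Cd37 at 0.50.

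The mean of the 22 B cell genes per mouse, relative to the mean of the controls, was -2.12 to -1.75 after neutrons. It was -0.54, -0.52, -0.49, -0.48 and -1.29 in x-ray mice 1 to 5. The x-ray mice other than mouse 5 were close together, and mouse 5 lay between them and the neutron mice. For comparison, the same score was -0.26 to 0.36 after 0.25 Gy neutrons and -2.93 to -2.5 at day 7 in mice given 4 Gy of x-rays. Without x-ray mouse 5, 16 B cell genes were called, and without x-ray mouse 3, 14 were.

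**Figure D2:**
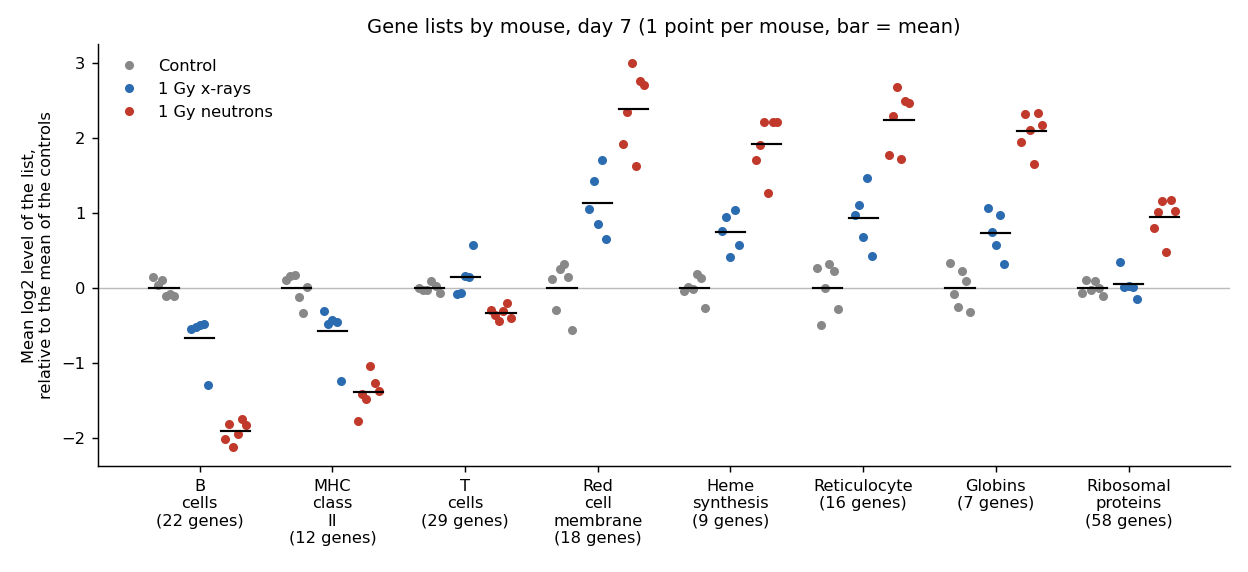
Mean centred log2 level of 8 gene lists per mouse at day 7, relative to the mean of the controls, for 6 control, 5 x-ray and 6 neutron mice, with the group mean as a bar. B cell genes lie at -2.12 to -1.75 in the neutron mice and at -1.29 to -0.48 in the x-ray mice; the red cell lists, the globins and the ribosomal proteins are higher after neutrons under this centring, and their order changes under other scalings.

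Genes of antigen presentation on MHC class II, which B cells and other presenting cells use to show peptides to T cells, fell in part. Of 12 tested, 5 were called lower and none higher, against 5.67% lower among all genes. The list median of -0.85 stayed below 0 under all 7 scalings. The called members were the peptide-loading proteins H2-DMb2, H2-Ob and H2-Oa, the class II chain H2-Eb1 and the invariant chain Cd74. H2-Ob was 1.65 to 2.15 in the neutron mice (median 1.96), and 3.42, 3.37, 3.85, 3.94 and 2.52 in x-ray mice 1 to 5, against 3.94 to 4.96 in the controls. The neutron mice lay below all x-ray mice, and the x-ray mice below the controls apart from x-ray mouse 4, which was level with the lowest control. The difference was -1.49 ± 0.25 (limma adjusted p = 0.000964). H2-DMb2 gave -1.66 ± 0.28, with -1.78 to -0.91 in the neutron mice (median -1.34) and 0.62, 0.16, 0.72, 0.79 and -0.70 in the x-ray mice.

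The promoters of H2-Ob and H2-DMb2 are shown because both genes were lower in every neutron mouse than in any x-ray mouse and MHC class II promoters are known to hold a CCAAT box. They span the 250 bases before the start site in the RefSeq tables (GRCm38.p6, forward strand), and capitals mark an exact match to CCAAT, here read on the other strand as ATTGG.
H2-Ob, chr17:34238655-34238904: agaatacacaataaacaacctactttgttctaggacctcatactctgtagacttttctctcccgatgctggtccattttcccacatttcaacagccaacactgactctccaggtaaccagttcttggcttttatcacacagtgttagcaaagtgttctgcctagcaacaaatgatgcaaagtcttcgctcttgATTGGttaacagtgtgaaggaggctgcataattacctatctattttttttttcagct
H2-DMb2, chr17:34144999-34145248: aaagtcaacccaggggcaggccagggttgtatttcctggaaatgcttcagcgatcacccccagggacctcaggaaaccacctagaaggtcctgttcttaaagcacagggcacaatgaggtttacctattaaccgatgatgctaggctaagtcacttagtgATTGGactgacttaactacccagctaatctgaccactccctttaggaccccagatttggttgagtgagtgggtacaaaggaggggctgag
The first base of the match lay at -57 from the start site in H2-Ob and at -90 in H2-DMb2. Among genes with a promoter given, CCAAT on either strand occurred for 43.6% of 385 called lower, 43.4% of 1022 called higher and 43.2% of 6620 tested. A gene counted if any of its promoters matched within the 300 bases given, of which 250 are shown. These shares were close to each other.

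Some T cell genes fell too, with a count that depended on the scaling. Of 29 tested, 4 were called lower and none higher, with a median of -0.64 that stayed below 0 under all 7 scalings. The number lower was 8 of 27 after quantile normalization, 13 of 30 with the median of all probes, 13 of 25 with normexp, 19 of 29 with dim spots missing and 20 of 30 with spike-in centring. In the same order, all genes gave 857 of 10905, 1624 of 12485, 1126 of 12960, 2014 of 11285 and 5001 of 15859 lower. Under median centring 5.67% of all genes were lower. The list median minus that of all genes was -0.98 under median centring and -0.59 with spike-in centring. The called members were Satb1, a chromatin organizer of T cells, S1pr1, the receptor by which lymphocytes leave lymphoid organs, the transcription factor Lef1 and the T cell receptor component Cd3d. Satb1 was 1.5 to 2.25 in the neutron mice (median 1.78), 2.55, 2.59, 3.21, 2.90 and 4.26 in x-ray mice 1 to 5, and 2.05 to 3.34 in the controls. The neutron mice lay below all x-ray mice but overlapped the controls, and the difference was -1.30 ± 0.29 (limma adjusted p = 0.00345). S1pr1 differed by -0.97 ± 0.20 (limma adjusted p = 0.00242). No T cell gene was called by limma when scan date was fitted as a block, where 13 were lower at an unadjusted p below 0.05, or when x-ray mouse 3 was left out, where 18 were. Cd4 was 2.13 higher and Cd8a 1.38 lower, on the log2 scale, and neither was called.

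Cytotoxic and natural killer genes gave 1 higher call among 19, against 17.3% higher among all genes. It was the granzyme Gzmk, at 1.05 to 3.94 after neutrons (median 2.03). X-ray mice 1 to 5 gave 1.46, -1.22, -1.72, -0.13 and -1.01. X-ray mouse 1 overlapped the neutron mice, and the difference was 2.71 ± 0.61 (limma adjusted p = 0.00352).

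Among genes with a symbol that were called lower after quantile normalization too and did not overlap between the groups, the largest falls outside these lists were Pla2g2d, Klhl14 and Bend5. Pla2g2d, a secreted phospholipase of lymphoid tissue, was -2.57 to -1.46 in the neutron mice (median -2.02), 0.47, 0.49, 0.37, 0.71 and -0.68 in x-ray mice 1 to 5, and 0.68 to 2.00 in the controls. The groups did not overlap, x-ray mouse 5 being nearest to the neutron mice, and the difference was -2.24 ± 0.29 (limma adjusted p = 0.000581), 4.71-fold. Bend5 had the smallest spread, with -2.59 to -2.20 after neutrons and -0.39, -0.44, -0.12, -0.55 and -0.32 after x-rays, a difference of -2.10 ± 0.16 (limma adjusted p = 8.6e-05). Srpk3, a kinase of splicing factors, differed by -1.85 ± 0.24. Bcl9, Kcnq1ot1 and Cnga1 were not well above background on any neutron array, so their fall is a bound: at least 1.62-fold, 2.25-fold and 1.57-fold lower, respectively. Klhl14 at -2.11 and Crocc at -1.86 were well above background on only 1 neutron array each. Of the 616 genes called lower, 137 had a probe that was not well above background on any neutron array.

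Red cell genes were higher after neutrons than after x-rays under median centring, and both groups were above the controls. Of 7 globin genes tested, 6 rose, of 18 red cell membrane and blood group genes 5 rose, of 9 heme synthesis genes 3, of 11 genes of iron uptake and storage 5, of 8 erythroid regulators 4 and of 16 reticulocyte clearance genes 10, and none fell in any of these lists, against 17.3% higher among all genes. Leaving out 1 mouse moved the membrane count to between 3 (without x-ray mouse 3 or 5) and 11 (without neutron mouse 4) and the heme count to between 3 and 7, the latter without neutron mouse 4. Without x-ray mouse 4, 10 membrane genes were called. The medians were 1.36 for globins, 1.28 for the membrane, 1.23 for heme, 0.99 for iron, 1.18 for the regulators and 1.45 for clearance, all below the 1.66 by which the arrays had been shifted. Their direction depended on the scaling: with normexp background correction the medians of the globins, membrane, heme, regulator and clearance lists fell below 0, to between -0.20 and -0.06, and with spike-in centring heme fell to -0.06 and iron to -0.30. After quantile normalization all 6 medians stayed above 0, from 0.38 to 0.93, with 1 of 15 clearance genes, 1 of 3 globins, 3 of 17 membrane genes, 1 of 8 heme genes, 2 of 9 iron genes and 4 of 8 regulators called.

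Klf1, the erythroid transcription factor that turns on adult globin genes, was called higher under the 6 scalings other than spike-in centring. It was -1.08 to 0.14 after neutrons (median -0.11), -1.71, -2.03, -2.68, -1.66 and -2.35 in x-ray mice 1 to 5 and -3.58 to -2.82 in the controls. The 3 groups did not overlap. The difference was 1.79 ± 0.27 (limma adjusted p = 0.000748), 3.46-fold, and 1.86 after quantile normalization. Icam4, a blood group protein of erythroblasts, was called under the same 6 scalings, with -0.18 to 1.89 after neutrons, -0.64, -0.65, -1.38, -0.52 and -1.51 after x-rays and a difference of 1.87 ± 0.34 (limma adjusted p = 0.00133).

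Alas2, the first enzyme of heme synthesis in red cells, was 12.04 to 12.77 after neutrons (median 12.42), 11.35, 10.87, 10.80, 11.03 and 10.61 in x-ray mice 1 to 5 and 9.80 to 10.56 in the controls. Every neutron mouse lay above every x-ray mouse, and every x-ray mouse above every control. The centred difference was 1.48 ± 0.20 (limma adjusted p = 0.000653), while the uncentred mean log2 signals were 18.9 and 19.1, and the spot was saturated on 2 x-ray arrays. Cpox, a later enzyme of the same pathway and not saturated, differed by 1.92 ± 0.33 (limma adjusted p = 0.00103), with 2.59 to 4.20 after neutrons and 1.17, 2.26, 1.25, 1.93 and 1.63 after x-rays. Hba-a1, the alpha globin with the largest difference, gave 1.62 ± 0.19, but its spot was saturated on 5 neutron and 4 x-ray arrays, and the uncentred signals, 19.2 in both groups, did not differ beyond that ceiling. The alpha globin genes are near-identical copies whose signals cannot be told apart, and globin RNA had been reduced before labelling.

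The promoters of Klf1, Alas2, Icam4 and Cpox are shown because these 4 genes were all called higher and GATA1 and KLF1 are the known regulators of such genes. They are the 250 bases before the RefSeq start site (GRCm38.p6, forward strand). In Alas2 and Icam4 capitals mark the motif of the GATA factors, which is AGATAA and reads TTATCT when it lies on the reverse strand. In Klf1 and Cpox they mark the motif of the factor KLF1, which is CACACCC and reads GGGTGTG when it lies on the reverse strand.
Klf1, chr8:84901732-84901981: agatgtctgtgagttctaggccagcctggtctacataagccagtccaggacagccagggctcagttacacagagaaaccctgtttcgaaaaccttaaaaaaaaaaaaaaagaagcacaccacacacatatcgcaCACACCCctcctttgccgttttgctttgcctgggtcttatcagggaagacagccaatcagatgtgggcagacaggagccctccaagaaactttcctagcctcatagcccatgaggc
Alas2, chrX:150547167-150547416: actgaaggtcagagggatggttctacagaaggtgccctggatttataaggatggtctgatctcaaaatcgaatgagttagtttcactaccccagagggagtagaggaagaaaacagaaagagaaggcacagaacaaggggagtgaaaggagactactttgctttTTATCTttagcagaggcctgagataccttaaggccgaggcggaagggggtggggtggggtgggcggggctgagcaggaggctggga
Icam4, chr9:21029182-21029431: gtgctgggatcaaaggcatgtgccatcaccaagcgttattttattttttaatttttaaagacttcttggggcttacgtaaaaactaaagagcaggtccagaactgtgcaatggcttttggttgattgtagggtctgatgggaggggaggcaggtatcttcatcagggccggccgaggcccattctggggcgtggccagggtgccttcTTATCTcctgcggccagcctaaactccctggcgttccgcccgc
Cpox, chr16:58669958-58670207: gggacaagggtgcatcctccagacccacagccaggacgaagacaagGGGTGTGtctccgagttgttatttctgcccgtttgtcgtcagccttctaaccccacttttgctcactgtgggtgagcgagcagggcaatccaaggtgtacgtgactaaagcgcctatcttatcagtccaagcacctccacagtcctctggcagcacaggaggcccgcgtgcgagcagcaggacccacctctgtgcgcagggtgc
The first base of the match lay at -116 in Klf1, -86 in Alas2, -43 in Icam4 and -204 in Cpox. AGATAA occurred in 10.7% of the promoters of genes called higher, 8.31% of those called lower and 9.73% of those tested, and CACACCC in 9.98%, 9.35% and 10.8%. These shares, counted by gene over the 300 bases given, were close to each other. Counted by promoter over all 32851 promoters given, they were 11.2% and 7.95%.

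Several other erythroid genes were called higher too under median centring, and many members of the red cell lists were not. Among the regulators, Gata1 differed by 1.53, its cofactor Zfpm1 by 1.58 and Lmo2 by 1.18. The iron importers Slc25a37 of the mitochondrion and Slc11a2 of the endosome differed by 1.49 and 1.66, and the ferritin chains Fth1 and Ftl1 by 1.43 and 1.46. A second probe of Slc11a2 moved the other way. Slc25a37 differed by -0.01 after quantile normalization and was not called. Membrane genes called included Epb41, Ermap and Rhag besides Icam4, from 1.45 to 1.87, while Slc4a1 at 1.21 was not called. Clearance genes called ran from 1.42 for the ubiquitin ligase Mkrn1 to 1.57 for the autophagy protein Gabarapl2, with the mitophagy receptor Bnip3l at 1.49. After quantile normalization Gabarapl2 differed by 0.13 and was not called. Bcl2l1, the survival factor of erythroblasts, differed by 1.43 ± 0.22 (limma adjusted p = 0.000804), but by 0.04 after quantile normalization and by -0.22 with normexp. Of 27 antioxidant genes, 9 were called higher and none lower, against 17.3% higher among all genes. The called ones included Cat at 1.70, Gstm5 at 1.75, Gpx1 at 1.63 and Prdx2 at 1.26. Of the 27, 9 belonged to the brightest of 10 bins by level in the controls, where 44.8% of all genes were called higher. After quantile normalization 2 of 27 were called, with a median of 0.09 against 0.10 over all genes, and Cat, at 0.64, was not called. The median of this list, 0.71 under median centring, turned to -0.47 with normexp and to -0.41 with spike-in centring. A link of these genes to red cells was not tested.

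**Figure D3:**
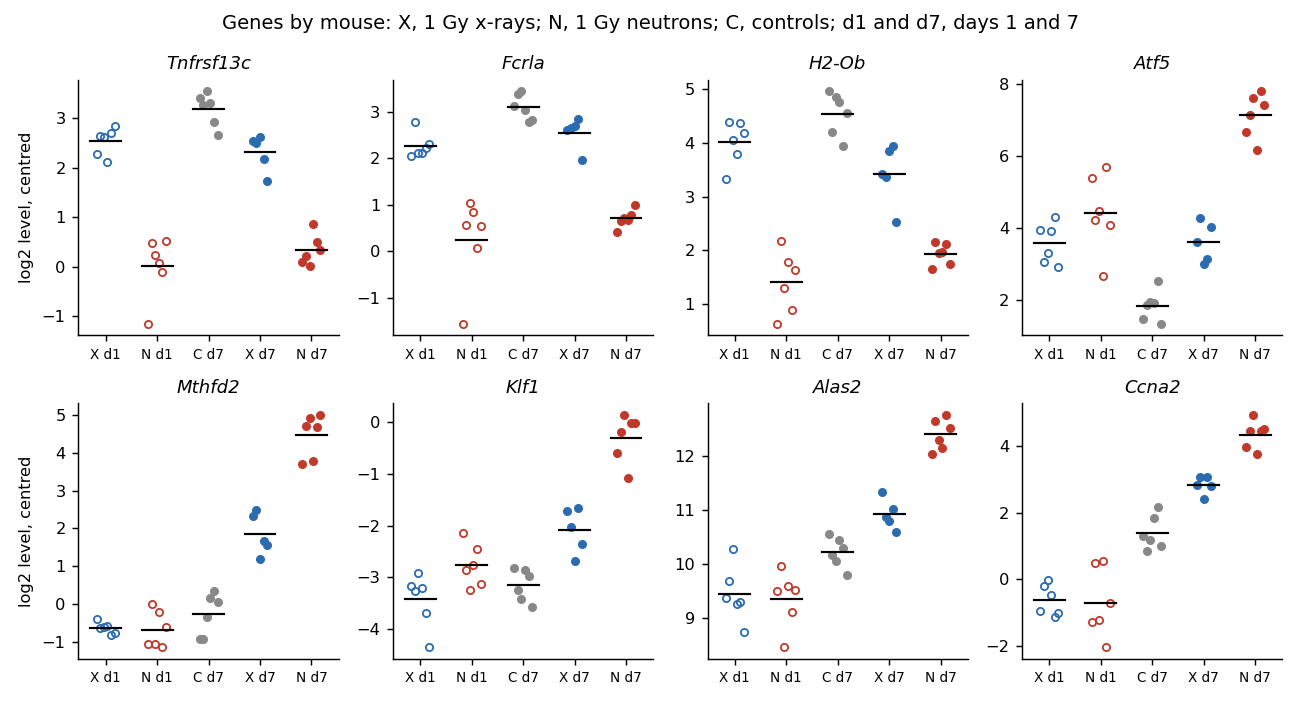
Centred log2 level of 8 genes per mouse in x-ray (X) and neutron (N) mice at days 1 and 7 and in controls (C) at day 7, with the group mean as a bar. Tnfrsf13c, Fcrla and H2-Ob are low after neutrons on both days, and Atf5, Mthfd2, Klf1, Alas2 and Ccna2 are highest in the neutron mice of day 7. With normexp the differences of Mthfd2, Alas2 and Ccna2 were not called.

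Cell cycle genes split. Of 8 genes of the E2F family and its pocket proteins, 2 rose and 1 fell, with a median of 0.63 that turned negative with spike-in centring. E2f2 was 8.45 to 9.56 after neutrons (median 9.22), 7.23, 7.71, 7.02, 8.03 and 6.98 in x-ray mice 1 to 5 and 5.49 to 6.19 in the controls, with no overlap between the 3 groups. The centred difference was 1.67 ± 0.28 (limma adjusted p = 0.00099), but the uncentred mean log2 signal was 15.6 in both groups. It was 0.52 after quantile normalization and not called. Rb1, the retinoblastoma protein that restrains E2F factors, differed by 1.47 ± 0.22. E2f1 at 0.25 and E2f8 at 0.14 were not called, and E2f5, called lower, was not well above background on any neutron array.

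Of 31 mitosis genes, 5 were called higher and none lower, near the 17.3% higher among all genes. Ccna2, cyclin A2, was 3.76 to 4.95 after neutrons (median 4.47), 2.83, 3.07, 2.41, 3.07 and 2.81 in x-ray mice 1 to 5 and 0.87 to 2.19 in the controls. The groups did not overlap, and the difference was 1.52 ± 0.23 (limma adjusted p = 0.000766) and 1.04 after quantile normalization. With normexp the Ccna2 difference was 0.10 and not called, and the uncentred difference was -0.15. The others called were Ccnb2, Pttg1, Ube2c and Nusap1, from 1.35 to 1.41, while Fzr1 at 1.22 and Cdc25b at 1.16 missed the p threshold. Ccnb2, Ube2c and Nusap1 were each called under only 2 of the 7 scalings. After quantile normalization these genes differed by 1.01, 0.28 and 0.52, and none was called. Their uncentred differences were -0.26, -0.32 and -0.31. Over the list, the median of 0.25 lay below that of all genes and turned negative when all probes set the median, with dim spots missing and with spike-in centring. X-ray mouse 5 had a mitosis score of 1.90 against 0.19 to 0.48 in the other x-ray mice and 0.86 to 1.28 in the neutron mice, and without it 7 of the 31 genes were called and the median was 0.75.

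Genes of DNA replication gave 2 of 25 called in each direction, against 17.3% higher and 5.67% lower among all genes. The list median was -0.49, negative under all 7 scalings. Leaving out 1 mouse gave medians from -0.61 to -0.17, the last without x-ray mouse 5. The replication score of that mouse relative to the controls was 0.72 against -0.42 to -0.23 in the other x-ray mice. The neutron mice scored -0.37 to -0.05 and overlapped the x-ray mice other than mouse 5. Lig1, the ligase that joins Okazaki fragments, was 9.57 to 10.42 after neutrons (median 9.91) and 8.87, 8.28, 7.76, 8.23 and 7.81 after x-rays, a difference of 1.78 ± 0.24 (limma adjusted p = 0.000653). The Lig1 difference was 0.52 after quantile normalization and 0.13 with normexp, and was called under neither. Its uncentred mean log2 signals were 16.5 after neutrons and 16.4 after x-rays. Pold1, the catalytic subunit of DNA polymerase delta, went the other way, with -0.18 to 0.47 after neutrons (median 0.33) and 1.29, 1.36, 1.34, 1.31 and 1.42 after x-rays. Its difference of -1.09 ± 0.17 (limma adjusted p = 0.00078) was called under all 7 scalings. Cdt1, which licenses replication origins, differed by -0.86, with x-ray mouse 5 the highest of its group at 2.85, and Gins3 differed by 1.00.

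The direction of the cytosolic ribosomal protein genes depended on the scaling. Under median centring 34 of 58 rose and none fell, with a median of 0.97, but 57 of the 58 belonged to the brightest of 10 bins of genes by level in the controls. The median was -0.37 after quantile normalization, with 1 called higher and 8 lower of 33, -0.59 with spike-in centring and -0.93 with normexp. Rplp0, a protein of the ribosomal stalk, kept a difference above 0, of 1.95 ± 0.23 (limma adjusted p = 0.00052) under median centring 0.79 after quantile normalization and 0.31, not called, with normexp. Its level was 10.74 to 11.82 in the neutron mice and 9.25 to 10.07 in the x-ray mice. Pseudogenes of ribosomal protein genes can share their signals. Oxidative phosphorylation genes gave 15 of 56 higher and none lower, with a median of 0.26, below that of all genes, and this median turned negative under 5 of the other 6 scalings.

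When the genes were divided into 10 bins by their level in the controls, the median difference was 0.04 to 0.27 in bins 1 to 8, 0.57 in bin 9 and 1.05 in the brightest bin. In the brightest bin 44.8% of the genes were called higher and 1.29% lower. After quantile normalization the bins ran from 0.05 to 0.42 with no rise in the brightest bins (0.11), and with normexp from 1.22 in the dimmest to -0.83 in bin 9.

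**Figure D4:**
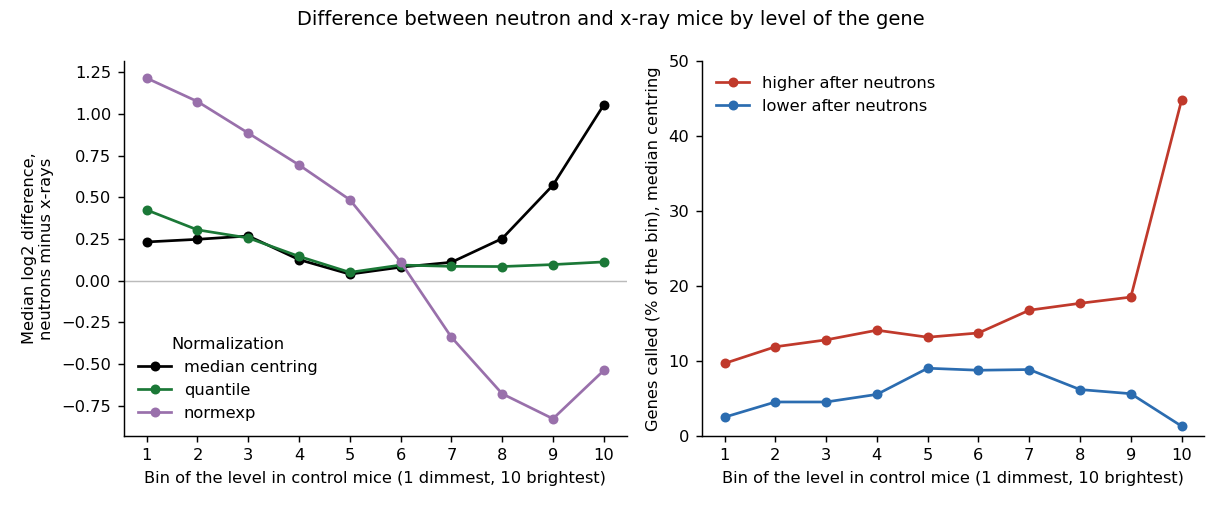
Differences between neutron and x-ray mice by the level of the gene in the controls, from bin 1 (dimmest) to bin 10 (brightest). The left panel gives the median log2 difference under 3 normalizations and the right panel the share of genes called in each direction under median centring; the brightest bin has a median of 1.05 and 44.8% called higher under median centring, but a median of 0.11 after quantile normalization and of -0.54 with normexp.

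Innate immune genes gave few calls. Over all genes 17.3% were called higher. Of 27 interferon-stimulated genes, 2 rose, Isg15 and Rsad2, by 1.77 and 1.54. Isg15, a ubiquitin-like modifier, was 8.90 to 10.07 after neutrons (median 9.65), 7.89, 8.23, 6.93, 8.35 and 7.45 in x-ray mice 1 to 5 and 5.65 to 7.52 in the controls, but its difference was 0.56 and not called after quantile normalization. Of 9 Toll-like receptors and adaptors, 3 rose: Tlr7 by 3.34 ± 0.67, Tlr9 by 1.11 ± 0.22 and Irak1 by 1.05. The 5 x-ray mice spread widely for Tlr7, from 1.39 to 5.79, the neutron mice gave 6.00 to 8.33, and a second probe moved the other way. Among neutrophil granule proteins, 2 of 12 rose, near the 17.3% of all genes, the antimicrobial peptide Camp by 1.43 ± 0.25 and the siderophore-binding Lcn2 by 1.32 ± 0.25. Itgam, an integrin of myeloid cells, was the only monocyte gene of 19 called, at 1.87 ± 0.36. Rsad2 and Itgam were each called under only 2 of the 7 scalings. No platelet gene of 24 was called by limma, with 10 at an unadjusted p below 0.05, and no mature neutrophil gene of 15, with 8. The medians of the interferon, Toll-like receptor and monocyte lists turned negative under at least 4 of the 6 other scalings.

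Genes of the p53 response, which arrests or kills damaged cells, gave few calls under median centring. There, 17.3% of all genes were called higher and 5.67% lower. Of 11 targets of arrest and repair, 1 was called, the DNA damage sensor Ddb2, lower by 0.90, and of 6 apoptosis targets none, by limma, with 1 at an unadjusted p below 0.05, Trp53 itself, at -0.52 (adjusted p = 0.0774) and at 0.49 with normexp. Cdkn1a, the p21 inhibitor of the cell cycle, gave 0.47 and was not called. Under other scalings more arrest genes were called: 3 of 13 lower after quantile normalization, 4 of 13 with the median of all probes, 6 of 13 with dim spots missing, 7 of 18 with spike-in centring, and 4 higher and 3 lower of 13 with normexp. In the same order, all genes gave 857 of 10905, 1624 of 12485, 2014 of 11285 and 5001 of 15859 lower. With normexp all genes gave 2904 higher and 1126 lower of 12960. Apoptosis genes gave 3 of 8 lower with dim spots missing and 2 of 11 with spike-in centring. The medians of both lists were below 0 under all 7 scalings. With spike-in centring the median of all genes was itself -1.15. There the arrest list differed from it by only -0.08 and the apoptosis list by -0.13. Among 16 excision and mismatch repair genes 2 rose and 3 fell, against 17.3% higher and 5.67% lower among all genes. Cetn2, a subunit of the lesion-recognition complex, differed by 1.35 ± 0.25, and the glycosylases Mutyh and Neil1 by -1.09 and -0.89, though Cetn2 and Mutyh changed sign with normexp. Mlh3, also called lower, was not well above background on any neutron array, and the glycosylase Tdg, called higher at 2.27, had a second probe that moved the other way. Of 14 double-strand break genes, Prkdc and Polm, both of end joining, were called lower at -0.97 and -0.84, and Prkdc was well above background on only 1 neutron array. The median of this list turned positive with normexp.

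Of 12 ribosome biogenesis genes, 4 fell and none rose, against 5.67% lower among all genes. Those that fell were the nucleolar proteins Wdr43, Nop58, Wdr75 and Tsr1. The list median of -0.84 was negative under all 7 scalings. The count was 0 to 3 when each mouse was left out in turn, 0 without x-ray mouse 3 and 1 without x-ray mouse 2 or 4, and the median then stayed between -0.89 and -0.73. Nop58 was -0.20 to 0.41 after neutrons and 1.08, 0.94, 0.94, 0.86 and 1.89 after x-rays, a difference of -0.93 ± 0.22 (limma adjusted p = 0.00425). Nxf1, the mRNA export receptor, was 2.52 to 3.07 after neutrons and 3.37, 3.54, 3.47, 3.36 and 3.74 after x-rays, at -0.79 ± 0.17 (limma adjusted p = 0.00268). Both were called lower under all 7 scalings, as was the splicing factor Srsf7, at -0.90. Splicing genes gave 1 higher and 2 lower of 22, and RNA export genes 1 higher and 2 lower of 14. Over all genes, 17.3% were called higher and 5.67% lower.

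By the same conditions, the largest rises included Fam160a1 at 3.78, Vangl2 at 3.64 and Atf5 at 3.54. For Vangl2 the spot of x-ray mouse 4 was left out as an outlier, so 4 x-ray mice entered, and the second probe of Fam160a1 moved the other way. Vangl2 was called under 3 of the 7 scalings. With scan date as a block Vangl2 differed by 1.34, a value that set neutron mouse 6 alone against the x-ray mice. Atf5, a transcription factor of the stress response, had the smallest SE of these 3, with 6.18 to 7.81 after neutrons (median 7.29), 3.60, 4.27, 2.99, 3.14 and 4.03 in x-ray mice 1 to 5 and 1.34 to 2.51 in the controls. The 3 groups did not overlap. The difference was 3.54 ± 0.33 (limma adjusted p = 0.000334), 11.6-fold, and stayed between 1.85 and 3.54 under the quantile, spike-in, normexp and median settings. Atf5 was called higher under all 7 scalings, as was Tmem82, at 2.89 ± 0.32.

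Mthfd2, a mitochondrial enzyme of one-carbon metabolism, was 3.71 to 5.00 after neutrons (median 4.69), 2.32, 2.49, 1.19, 1.66 and 1.56 in x-ray mice 1 to 5 and -0.93 to 0.33 in the controls. Each group lay apart from the next, and the difference was 2.62 ± 0.32 (limma adjusted p = 0.000521), 2.14 after quantile normalization. With normexp the Mthfd2 difference was 1.05 and not called. Other genes among the 10 largest rises were Prl3b1 at 2.64, Krt16 at 2.62, Lce1a2 at 2.62 and Teddm2 at 2.5.

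**Figure D5:**
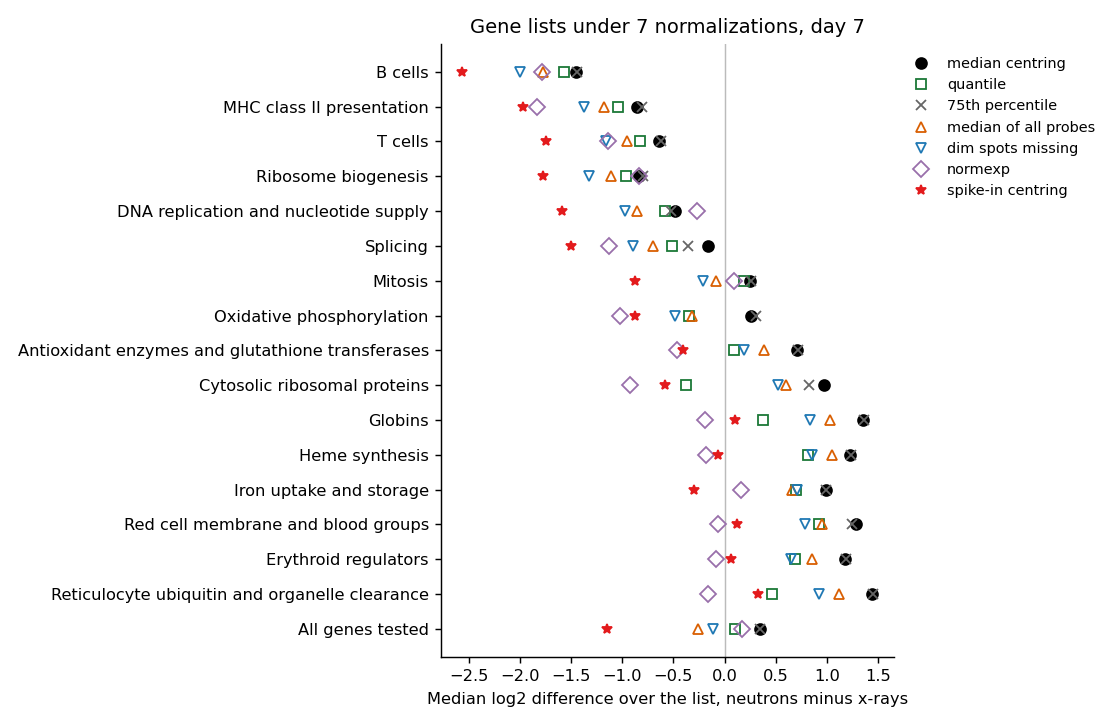
Median log2 difference, neutrons minus x-rays, of 16 gene lists and of all genes tested at day 7 under 7 normalizations. The B cell list stays between -2.57 and -1.44 and the MHC class II and T cell lists stay below 0, while the ribosomal protein list moves from 0.97 with median centring to -0.93 with normexp.

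The day 1 mice showed which differences were already there. The difference between neutrons and x-rays changed between day 1 and day 7, by the limma interaction test, for 1038 genes (9.56%), 970 (8.93%) toward neutrons and 68 (0.626%) toward x-rays. This balance depended on the scaling. It was 449 and 161 after quantile normalization, 297 and 824 with dim spots missing and 3 and 2878 with spike-in centring. At day 1, 983 genes (9.05%) were called, 144 (1.33%) higher and 839 (7.72%) lower after neutrons. The B cell difference was present at both times, with a median of -1.71 and 16 genes called lower at day 1, and only 1 of the 22 genes changed between the days. Tnfrsf13c differed by -2.53 at day 1 and -1.97 at day 7, and this change of 0.55 was not called (adjusted p = 0.268). Fcrla differed by -2.01 and -1.84.

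Among red cell genes, Alas2 and some globins had a called change between the days, and most other members did not. At day 1 the medians were -0.11 for globins, 0.26 for heme, 0.28 for the membrane and 0.04 for clearance, and the changes to day 7 were called for 4 of 7 globins, 2 of 9 heme genes, none of 18 membrane genes and 2 of 16 clearance genes, against 8.93% of all genes. Alas2 moved from -0.08 at day 1 to 1.48 (adjusted p = 0.00396 for the change), whereas the change of Klf1, from 0.67 to 1.79, was not called (adjusted p = 0.0399, with the unadjusted p above the threshold). The ribosomal proteins changed from -0.68 to 0.97, with 54 of 58 changes called. Mthfd2 moved from -0.05 to 2.62 (adjusted p = 9.14e-05) and Atf5 from 0.86 to 3.54 (adjusted p = 0.00275). Lrrc2, Gzmk and Olfr544 had the largest changes toward neutrons, of 5.30, 3.55 and 3.45. Ifit3, an interferon-induced gene, went from 2.30 higher at day 1 to -0.41 at day 7, a change of -2.71 (adjusted p = 6.95e-05). Slfn3 gave -2.41. Reps2 was called too, but no neutron array of day 7 had its spot well above background, so the size of its change was not measured. With normexp the interaction test called 1 gene.

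Scan dates were shared by the groups unevenly. One date held neutron mouse 6 and x-ray mice 1, 2, 3 and 5. A second held neutron mice 2 to 5 and x-ray mouse 4, and another held neutron mouse 1 alone of these mice. All 6 controls of day 7 were on the date of neutron mouse 1. For the x-ray mice and the other neutron mice, a difference from the controls cannot be told apart from scan date. With date as a block limma called 812 genes, 609 higher and 203 lower, and within either date alone it called none, where 1 mouse stood on one side, although 4443 and 1682 genes had an unadjusted p below 0.05. The B cell median was -1.38 in the first date, -1.57 in the second and -1.56 with the block, with 12 genes called. The reticulocyte clearance median was 1.86, 0.92 and 1.32, with 5 called, and the ribosomal protein median 1.06, 1.00 and 1.02, with 17 called. Atf5 gave 3.71 and 4.05 within the dates, Alas2 1.62 and 1.44, Klf1 2.17 and 1.37, and Tnfrsf13c -2.0 and -1.77. One slide held neutron mouse 6 and x-ray mice 1, 2 and 3, and with the slide as a block 217 genes were called, 11 B cell genes among them.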

How the data were processed

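Whole-blood RNA was measured on one-colour Agilent arrays with 1 mouse per array. The authors deposited the scanner output of each array, read with Agilent Feature Extraction 12.0.2 per the labels, and its processed signal, a background-subtracted intensity, was used here. The genome build behind the array design was not used. Groups were taken from the labels. Of 44397 spots, 1377 control spots and spots called outliers were left out, and spots of a probe were averaged, giving 39429 probes. Each array was put on the log2 scale and centred on its median over 19808 detected probes. Following the filters of the study, the 56 arrays of both days served to drop probes that were outliers or not well above background on 25% or more of them and probes whose values lay 1.5-fold from the median on fewer than 20%, and 1 probe was kept per gene, which left 10863 genes. Probe names were updated through RefSeq accessions for 28330 probes. Groups were compared with limma 3.58.1 in R 4.3.3, without covariates, with calls at p below 0.001 together with an FDR below 5%. The change between days was an interaction term over the 1 Gy groups of both days. Array measures were compared with exact 2-sided permutation tests. The 6 other scalings were quantile normalization, the 75th percentile, the median of all probes, spike-in probes, normexp with an offset of 50, and dim spots as missing. Named genes were the 10 largest rises and falls among non-overlapping genes with a symbol that were called in the same direction after quantile normalization, up to 2 called members per list and direction (the member with the smallest p where none was called), the genes the study discussed and the 3 largest changes between days in each direction; other list members are given as values. Some genes that this rule or the lists include are not reported here. The members and lists were chosen with earlier results of these data known. On simulated data with 10803 genes for this comparison, 100 genes were changed at each size. Of genes changed by 1 on the log2 scale 25% were called, and of those changed by 2 94%, with 5 false calls. Far more genes, 2496, were called in the data, so these shares need not hold for this comparison. The number of arrays limits the precision, and array intensities give no read depth.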

Additional observations from a re-analysis of the deposited data

Results flagged for a closer look

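Among 208 groups of 4 to 10 mice tested for a single mouse far from the rest (Dixon's test, which chance passes in about 1 group in 20), 18 gave one, as centred log2 levels. X-ray mouse 5 was that mouse for 9 genes, Pla2g2d -0.68, Fcrla 1.96, Irf4 -0.27, Camp -0.31, Cdt1 2.85, Polm -1.33, Nop58 1.89, Gstm5 4.33, E2f8 0.49. Neutron mouse 4 was it for Tmem82 -1.40, Prl3b1 1.53, Tlr9 3.64, Srsf2 0.77, Rplp0 10.74, neutron mouse 3 for Lce1a2 8.46, Tdg 1.04, Olfr544 6.13 and neutron mouse 1 for Ahsg 4.60. X-ray mouse 5 also had the lowest correlation with its group and the highest hepatocyte score, and without it 1892 genes were called, 1316 higher and 576 lower.

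For 26 named genes the difference between neutrons and x-rays itself differed between day 1 and day 7 by the limma interaction test, with adjusted p from 6.95e-05 to 0.0102. On the log2 scale, day 7 minus day 1, the difference moved toward neutrons for Atf5 2.68, Prl3b1 2.72, Mthfd2 2.67, Teddm2 3.23, Gzmk 3.55, Itgam 2.13, Hba-a1 2.08, Hba-a2 1.83, Alas2 1.55, Zfpm1 1.33, Gabarapl2 1.80, Rb1 1.35, Gins3 1.73, Ccnb2 1.90, Cetn2 1.57, Tlr7 3.36, Rplp0 2.18, Rplp1 2.12, Atp5l 1.58, Atp5b 1.17, Lrrc2 5.30, Olfr544 3.45. It moved toward x-rays for Kcnq1ot1 -1.50, Ifit3 -2.71, Reps2 -2.70, Slfn3 -2.41. Kcnq1ot1 and Reps2 were not well above background on any neutron array of day 7, and Hba-a1 was saturated on most arrays.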

How the results depend on the processing

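Over all genes tested, the total called was 2496 and the median difference 0.34. Quantile normalization gave 1121 higher genes and a median of 0.10, the median of all probes 683 higher, 1624 lower and -0.26, spike-in centring 5022 called, 21 higher, 5001 lower and -1.15, normexp 4030 called, 2904 higher, 1126 lower and 0.18, and dim spots as missing 441 higher, 2014 lower and -0.11. Without the detection filter 9586 genes were called, 9092 higher, with a median of 1.12. The median was 0.57 over genes above background on all 11 arrays, 0.56 with detection set over these arrays and -0.011 without the variation filter, where 1121 were lower. With all 5 groups of day 7 in the fit 1115 were lower. Scan date as a block gave 812 called, 609 higher and 203 lower, slide as a block 217, 120 and 97, and limma within either shared date or within the shared slide alone called 0, with 4443, 1682 and 5028 genes at an unadjusted p below 0.05 and a median of 0.22 in the second date. The replicate block gave 754 called, 579 higher and 175 lower; same-numbered mice did not deviate together, with correlations from -0.36 to 0.20, so the numbers do not pair the mice.

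Leaving out 1 mouse at a time gave 1533 to 2956 genes called, 1189 to 2263 higher and 344 to 693 lower, medians of 0.30 to 0.37, a difference in bright spots of -12.0 to -10.0 points and 783 to 1300 changes between days. E2f8, at 0.14 with all mice, ranged from -0.0053 to 0.52, the first without x-ray mouse 2 and the second without x-ray mouse 5. The lowest count, 1533, was without x-ray mouse 3, and without x-ray mouse 2, 382 genes were lower. Changes between days numbered 610 with quantile normalization, 2881 with spike-in centring, 1 with normexp, 6505 without the detection filter and 376 with the date block.

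Of 103 named genes, those whose difference changed sign are given with the log2 difference under that setting. With normexp, whose offset of 50 exceeds the median spot signal of every neutron array (9.52 to 16.8), they were Klhl14 0.35, Bcl9 0.86, Kcnq1ot1 0.65, Cnga1 0.72, Crocc 0.59, Trp53 0.49, Bcl2l1 -0.22, Erap1 0.91, Lcn2 -0.083, S100a9 -0.45, Pf4 -0.96, Hba-a1 -0.0025, Hba-a2 -0.10, Alas2 -0.19, Slc25a37 -0.17, Gabarapl2 -0.063, Ubac1 -0.090, E2f2 -0.00088, E2f5 0.95, Gins3 -0.62, Ccnb2 -0.017, Cetn2 -0.23, Mlh3 1.11, Mutyh 1.01, Prkdc 0.82, Rsad2 -0.13, Tlr9 -0.33, Nup160 0.48, Rplp1 -0.019, Psmd4 -0.43, Atp5l -0.14, Atp5b -0.28, Bpgm -0.074, Taldo1 -0.41, Dhcr7 0.85, Acsl1 -0.12, Saa1 -0.63, Ube2c -0.30, Fzr1 -0.20, Cdc25b -0.46, Nusap1 -0.16, Olfr544 -0.091, Reps2 1.08. With spike-in centring they were Pf4 -0.42, Hoxa9 -0.087, Gins3 -0.12, Tdg -1.73, Tlr9 -0.015, Srsf2 -0.28, Xpo5 -0.19, Psmd4 -0.0031, Saa1 -0.62, Fosb -0.086, E2f1 -0.87, E2f8 -0.98, Slfn3 -0.81. With dim spots missing they were Srsf2 -1.27, Ahsg 0.082, Saa1 -0.023, E2f8 -0.39, with the median of all probes E2f8 -0.19, Slfn3 -0.014, with quantile normalization Pf4 -0.43, Slc25a37 -0.013, and without the variation filter Tdg -0.61. With the date block Slfn3 -0.21 changed sign, with the slide block and within the shared slide Slfn3 -0.76, and within the first date E2f8 -0.42, Slfn3 -0.68. The cause was not tested for any of these settings. The dimness of the neutron arrays limits what can be read from genes near background.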

Other observations

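Atf5 and Mthfd2 are known targets of the amino acid and stress response driven by ATF4, so 36 genes of that response were listed after their values had been seen, and the counts are a description. Of 22 tested, 7 were called higher and 1 lower after neutrons, against 17.3% higher and 5.67% lower among all genes, and the 7 include Atf5 and Mthfd2, which prompted the list. The median difference was 0.63 against 0.34 over all genes. Asns, asparagine synthetase, was 1.68 to 3.85 after neutrons (median 3.10), 0.55 to 1.75 after x-rays, where the median was 0.92, and at most 0.10 in any control, a difference of 2.03 ± 0.39 (limma adjusted p = 0.00177). The neutron mice and the x-ray mice overlapped slightly for Asns. The amino acid transporter subunits Slc7a5 and Slc3a2 differed by 1.76 and 1.56, the pseudokinase Trib3 by 1.81 and the phosphatase subunit Ppp1r15a by 1.26. The kinase Eif2ak4, a sensor of uncharged tRNA, was lower, at -0.98. Atf4 itself gave 0.95, the heme-regulated kinase Eif2ak1 1.17, Chac1 0.52, Atf3 0.17 and Phgdh -0.93, and none of these was called. The median at day 1 was 0.09, and 3 of the 22 genes had a called change between the days.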
